A study of Mus musculus with 96 samples.

Results

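The cells compared here were the 48 EL4 cells labelled as CTCF knockdown, 24 from the first culture (CTCF-KD1) and 24 from the second (CTCF-KD2), out of 96 single cells in the series. They were chosen by their labels and by a filter of at least 3000 genes with a TPM above 0 (transcripts scaled to gene length and to a common total in each cell), which all 48 passed. The cultures were set against each other with their Ctcf mRNA known, low in CTCF-KD1 and near the control level in CTCF-KD2. EL4 is a mouse T-lymphoma line of C57BL/6 origin. Cells of both CTCF-KD cultures had been infected with viral particles carrying GFP and a short hairpin RNA against Ctcf. The control cells, labelled WT and wild type, had been infected in the same way with a hairpin against luciferase, and 24 cells of WT1 and 23 of WT2 passed the filter. All 4 cultures were therefore infected and selected for GFP, and no uninfected cells are compared. The study used 2 hairpins against Ctcf, and the labels do not say which hairpin each culture received. Each culture was loaded on a microfluidic circuit of its own, and the authors chose the 24 best captured cells per circuit. WT1 and CTCF-KD1 were handled in a first experiment, and WT2 and CTCF-KD2 in a second after a further knockdown. Culture, circuit, experiment, depth and any difference of hairpin therefore cannot be told apart between CTCF-KD1 and CTCF-KD2.

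CTCF is a zinc finger protein that binds insulators and domain borders along chromosomes. Cohesin, a ring of SMC and kleisin subunits, is thought to extrude chromatin into loops until it meets bound CTCF, and such loops can bring promoters to enhancers or shield them. In T cells, CTCF is known for its part in the folding of the antigen receptor and cytokine loci.

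Each labelled culture is 1 sample and its cells are not replicates of a condition, so no difference between the cultures was tested and no p-value is given. Levels are means of the TPM over the cells of a culture. Differences are log2(mean TPM + 1) of CTCF-KD2 minus the same of CTCF-KD1, a scale that understates the change of low genes. Where a pair of means or cell numbers follows a gene, the value of CTCF-KD1 (or WT1) comes before that of the culture labelled CTCF-KD2 (or WT2), and higher or lower refers to the second. A difference of 1 or more, which is 2-fold, is used as a rule of size. Intervals are 95% exact intervals and cover counting error alone, since reads without molecular identifiers are not independent molecules.

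Whole reads could be recovered from the steps of the TPM values. The CTCF-KD1 cells held 104502 to 310865 reads (median 234260) and the CTCF-KD2 cells 41591 to 271300 (median 131098). CTCF-KD1 cells had a median of 6173 detected genes and CTCF-KD2 cells of 5656. After each cell was thinned to 80000 reads these medians were 5257 and 5214, with 1 CTCF-KD2 cell too shallow to be thinned. No pair of CTCF-KD cells came close to sampling noise, the nearest of 1128 pairs having a chi-square of 4.47 per degree of freedom. T cell genes marked the cells of both cultures: Cd3d and Lck, a subunit of the T cell receptor complex and the kinase that starts its signal, were present in 24 of 24 cells of each. Not all listed T cell genes were: Cd247 was read in 5 and 3 cells, Cd6 in 3 and 1, and Cd4 in 1 and 1. Cd8a, Cd8b1, the B cell gene Ms4a1, the macrophage genes Lyz2 and Adgre1 and the epithelial gene Epcam were at 0 in all 48 cells. The myeloid gene Cd68 was read in 4 and 6 cells. Summed over each marker list, B cell genes reached at most 33.4 TPM in a CTCF-KD1 cell and 45.9 TPM in a CTCF-KD2 cell, and myeloid genes 475 and 480.2 TPM. NK cell and stromal genes were at 0 in CTCF-KD1 and reached 366 and 25 TPM in CTCF-KD2, and erythroid and epithelial genes were at 0 in both.

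The CTCF-KD2 cell with the fewest reads stood apart from the other 23. It had 41591 reads where the others had at least 86190, and 3150 genes where the others had at least 4325. Its Malat1 level was 38862 TPM against a highest value of 5882 in the others, and its Jun level 4454 TPM against 35.5. Ndufa3, between 219 and 1795 TPM in the others, was at 0 in it, and Cd3d was at 90.4 TPM against at least 998. Without this cell 1148 genes were at least 2-fold higher and 587 lower in CTCF-KD2, against 1217 and 556 with it. Results that rest on it are given with and without it.

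Ctcf (chr8:105636568-105682922, plus strand, GRCm38) was the targeted gene, and its mRNA was low in the first culture alone. The cultures were contrasted with this known, so the values here describe the choice. In CTCF-KD1 the level of Ctcf ran from 0 to 125 TPM with a median of 3.62 and a mean of 16, and 16 of 24 cells had a read (66.7%, interval 44.7 to 84.4). In CTCF-KD2 it ran from 0 to 205 TPM with a median of 31.5 and a mean of 44.9, and 20 of 24 cells had a read (83.3%, interval 62.6 to 95.3). The range of cells overlapped, while the difference of the means was 1.44 on the log2 scale. Summed over cells, 177 reads in CTCF-KD1 (31.6 RPM, reads scaled to a common library total, interval 27.1 to 36.6) stood against 265 in CTCF-KD2 (82, interval 72.4 to 92.5), a ratio of 2.60 with a counting interval of 2.14 to 3.16. The control cultures had means of 60.3 TPM (WT1) and 37.1 TPM (WT2), and 113.9 and 71.7 RPM. The mean of CTCF-KD2 thus lay between those of the control cultures, and above that of WT2. In the deposited single-cell values, Ctcf mRNA of the second culture goes against its label, so CTCF-KD2 below stands for the culture labelled CTCF-KD2 and no direction is read from its label. The study also measured Ctcf mRNA and CTCF protein in bulk in both knockdown populations, took these as efficiently depleted, and chose them for sequencing on that basis; those bulk measurements are not analysed here.

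**Figure D1:**
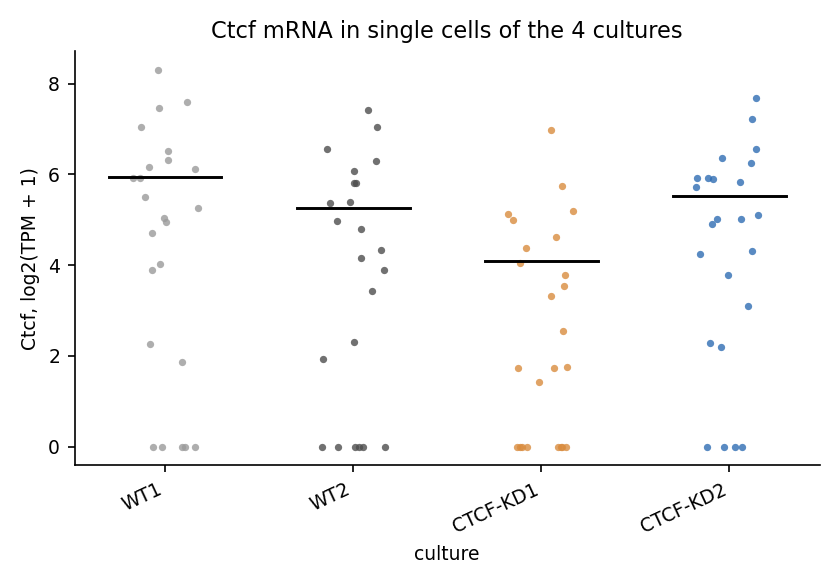
Ctcf mRNA per cell, log2(TPM + 1), in the 24 cells of WT1, 23 of WT2, 24 of CTCF-KD1 and 24 of the culture labelled CTCF-KD2. Points are cells, spread sideways at random, and bars stand at log2(mean TPM + 1); the bar of CTCF-KD1 (mean 16 TPM) lies below the other 3 (37.1 to 60.3 TPM), and cells at 0 occur in every culture.

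Across the 6974 genes with a mean of at least 10 TPM and reads in at least 10 of the 48 cells, 1217 (17.5%) were at least 2-fold higher in the culture labelled CTCF-KD2 and 556 (7.97%) at least 2-fold lower, 25.4% in all. The control cultures gave a larger share. Of 6703 genes, 1430 (21.3%) were at least 2-fold higher in WT2 than in WT1 and 630 (9.4%) lower, 30.7% in all. The middle 50% of differences spanned 1.06 on the log2 scale between the CTCF-KD cultures and 1.18 between the control cultures. The excess of higher genes depended on the scaling. The median of all differences was 0.22, and higher genes made up 68.6% of those past 2-fold; this share was 50.5% after the median was set to 0, 51.3% on RPM of summed reads (median 0.02) and 46.6% when logs were averaged over cells (median -0.0039). A gene in the text is therefore best read against the shift of 0.22.

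The comparisons between the CTCF-KD cultures and between the control cultures share no cells. Of 6113 genes that entered both, 1003 were at least 2-fold higher in the culture labelled CTCF-KD2, and 396 of these (39.5%) were at least 2-fold higher in WT2 as well, where 20.1% of all 6113 genes were. Of 430 genes lower in CTCF-KD2, 130 (30.2%) were lower in WT2, where 9.01% of all were. Past 2-fold in opposite directions were 46 genes higher in CTCF-KD2 and lower in WT2, and 53 of the reverse kind. The differences had a Pearson r of 0.32 and a Spearman rho of 0.35 across these genes, which do not vary independently. The genes that separated the second from the first CTCF-KD culture thus included many that separated the second from the first control culture, and the second number stands in both conditions for the second experiment.

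Across all tested genes, the differences between the cultures varied with the base composition of the transcripts. This was not tested for the genes shared by the comparisons alone. Of the genes tested, 6928 could be matched to a transcript in GENCODE M21. They were divided by GC content into 10 groups of like size. In the GC-poorest group (median 39.7%), the median difference between the CTCF-KD cultures was 0.90 on the log2 scale, and 43.9% of genes were at least 2-fold higher in the culture labelled CTCF-KD2 and 1.01% lower. In the GC-richest group (median 58.5%), the median was -0.34, with 6.2% of genes higher and 22.1% lower. The medians were lower from each group to the next, and the control cultures gave nearly the same steps, from 0.90 to -0.28. Spearman's rho between GC content and the difference across genes was -0.43 for the CTCF-KD cultures and -0.36 for the control cultures. Transcript length went the other way, with rho of 0.23 and 0.14.

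**Figure D2:**
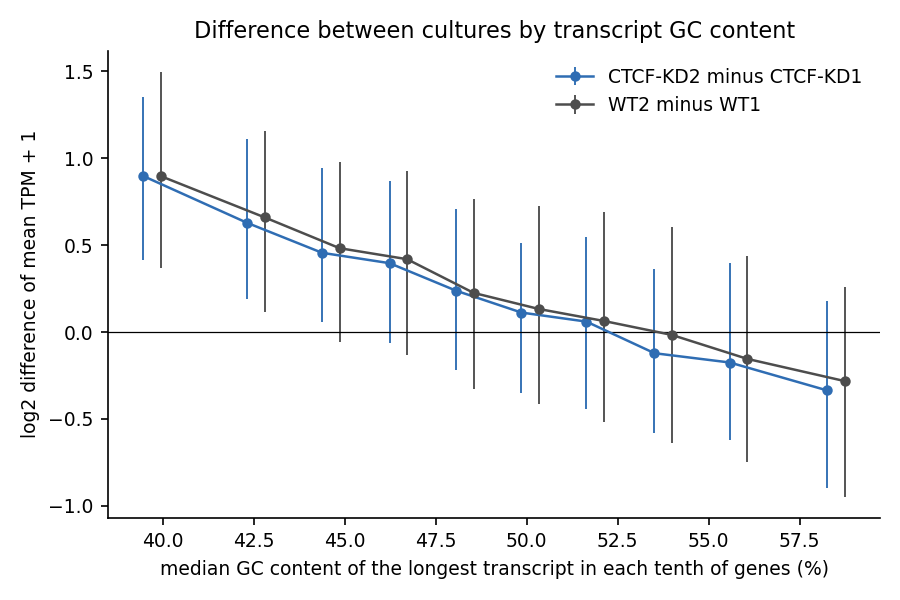
Median log2 difference of mean TPM + 1 (y axis) in 10 groups of tested genes ordered by the GC content of their longest transcript (x axis, median of each group in percent), for the culture labelled CTCF-KD2 minus CTCF-KD1 and for WT2 minus WT1, drawn slightly apart. Lines reach from the lower to the upper quartile; the medians go from 0.90 to -0.34 in the CTCF-KD cells and from 0.90 to -0.28 in the control cells.

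A pair of genes, chosen by their GC content, illustrates this composition in letters and is no test of it. The 12 highest genes described below had a median GC content of 48.2%, close to the 49.2% of all tested genes. The 12 lowest had a median of 53.7%. Cbx3 was higher and Pgls lower in the second culture of both conditions by at least 2-fold, and among the protein-coding genes for which this held, of the 12 highest and the 12 lowest described below, Cbx3 was the poorest in G and C and Pgls the richest. The first 120 bases of their coding sequences, from the longest protein-coding transcript in GENCODE M21 (GRCm38), are printed with G and C in capitals. Cbx3 (chr6:51470360-51483704, plus strand) has 45 such bases of 120, and Pgls (chr8:71592176-71601092, plus strand) 72 of 120.
Cbx3: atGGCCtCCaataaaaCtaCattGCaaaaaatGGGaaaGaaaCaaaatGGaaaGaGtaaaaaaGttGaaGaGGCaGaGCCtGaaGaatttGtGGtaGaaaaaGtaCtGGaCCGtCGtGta
Pgls: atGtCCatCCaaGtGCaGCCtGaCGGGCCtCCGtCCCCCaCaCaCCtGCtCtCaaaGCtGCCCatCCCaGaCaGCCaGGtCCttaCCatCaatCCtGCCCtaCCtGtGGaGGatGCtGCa
Over the whole coding sequence of these transcripts (549 bases in Cbx3 and 522 in Pgls) the GC content is 43.2% in Cbx3 and 61.5% in Pgls. Other transcripts of these genes can have another coding sequence.

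The same contrast was present in every cell. For each cell, reads on the GC-poorest group of genes were divided by reads on the GC-richest group. The log2 of this ratio lay between -1.04 and -0.33 (median -0.69) in CTCF-KD1 and between -0.15 and 0.89 (median 0.56) in the culture labelled CTCF-KD2. In the control cells it lay between -0.99 and -0.25 (median -0.56) in WT1 and between 0.08 and 1.39 (median 0.60) in WT2. Neither pair of cultures overlapped in this ratio. The value of -0.15 belonged to the shallow cell, and the lowest of the other 23 was 0.22. When the differences were centred by GC content and transcript length, a step chosen after these values were seen, 628 genes were at least 2-fold higher in CTCF-KD2 and 664 lower (18.6% in all), against 809 and 783 between the control cultures (23.9%), and r between the comparisons was 0.18. The part that base composition plays in any single gene below was not tested.

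**Figure D3:**
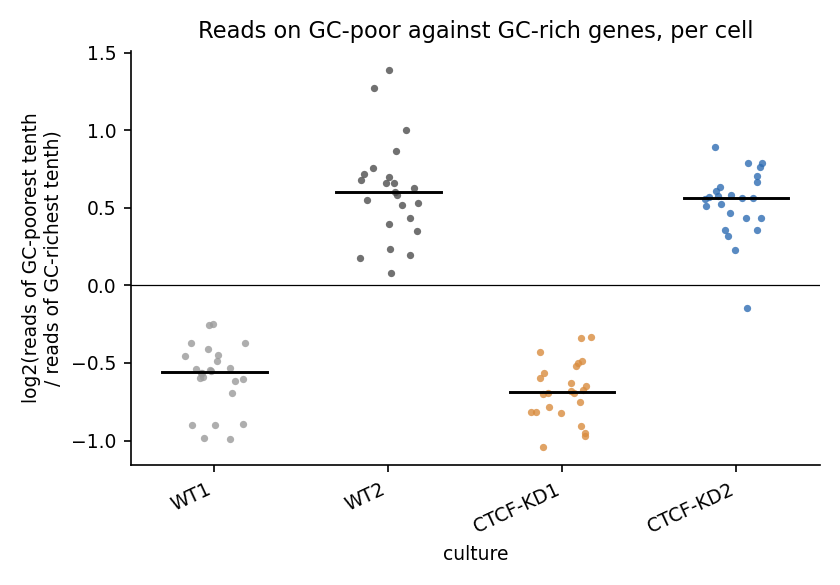
Log2 ratio of the reads on the GC-poorest of 10 groups of genes to those on the GC-richest (y axis), per cell, in the 4 cultures; points are cells and bars are medians. All cells of the culture labelled CTCF-KD2 and WT2 lie at or above -0.15 and all cells of CTCF-KD1 and WT1 at or below -0.25, with no overlap between the cultures of either condition.

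Cbx3 encodes heterochromatin protein 1 gamma, which binds methylated histone H3, and was read in every CTCF-KD cell. Its level ran from 9.10 to 78.9 TPM (median 38) in CTCF-KD1 and from 97.1 to 634 TPM (median 257) in the culture labelled CTCF-KD2. The means were 38.93 and 270.4 TPM, a difference of 2.77. It was the sole gene of 6974 (0.0143%) for which all CTCF-KD2 cells were above all CTCF-KD1 cells. In the control cells the means were 23.8 TPM in WT1 and 235 TPM in WT2, a difference of 3.25, with some overlap of cells. Below without overlap were 2 genes (0.0287%), picked out after their values were seen. Rplp1, an acidic protein of the ribosomal stalk, ran from 2651 to 8582 TPM in CTCF-KD1 and from 1277 to 2539 TPM in CTCF-KD2. Gm15772, known by its model name, ran from 605 to 1401 TPM and from 78.1 to 604.5 TPM, and its control cells did not overlap either, 1 of 2 genes (0.0298%) lower without overlap in WT2.

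The other genes with the largest excess in the culture labelled CTCF-KD2 were read in part of the cells. The antisense RNA 4933433G19Rik had 3 positive cells in CTCF-KD1 and 15 in CTCF-KD2, with means of 1.74 and 38.6 TPM, a difference of 3.85 and of 0.82 between the control cultures. It lies opposite to Ptdss1, and Far1os, an antisense RNA opposite to Far1, had 3 and 16 positive cells, means of 1.59 and 23.3 TPM and a difference of 3.23. Since the counting is not stated to use strand, reads of such a pair cannot be told apart. Zfp180 and Zfp869, zinc finger genes, differed by 3.49 and 3.08. Rcsd1, which encodes a binding partner of actin capping protein, had means of 14.4 and 131 TPM, a difference of 3.11 that was 2.23 without the shallow cell. Fam53c and Gdap2 differed by 2.89 and 2.79.

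Tiam1, St3gal1 and Nek4 were 2-fold apart in both comparisons but in opposite directions. Tiam1, an exchange factor that activates Rac, had a mean of 3.12 TPM in CTCF-KD1 and of 43.6 TPM in the culture labelled CTCF-KD2, with 16 and 14 positive cells. Its highest value of 818 TPM was in the shallow cell, and the difference of 3.44 was 1.41 without it. St3gal1, a sialyltransferase of O-glycans, had means of 2.67 and 31 TPM with 10 and 14 positive cells, a difference of 3.12 against -1.88 between the control cultures. Nek4, a kinase of the NIMA family, had means of 3.04 and 25.7 TPM and differed by 2.73 against -1.53. Tmub2 rested on the shallow cell, its difference of 3.14 being 0.69 without it. Of the 12 highest genes, 4 were also at least 2-fold higher in WT2, where 21.3% of all tested genes were.

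Of the 12 lowest genes, 9 were at least 2-fold lower in WT2 too, where 9.4% of all tested genes were. The antisense RNA 4930539J05Rik, opposite to Ube2d3, had 42 reads in 14 cells of CTCF-KD1 and none in the culture labelled CTCF-KD2. With a floor of 3 reads over the culture it was at least 8.07-fold lower in RPM. Pgls, an enzyme of the pentose phosphate pathway, ran from 91.2 to 788 TPM (median 319) in CTCF-KD1 and from 0 to 412 TPM (median 29.2) in CTCF-KD2. Its means of 363 and 45.4 TPM differed by -2.97, or by -3.58 without the shallow cell, and the control means were 152 and 42.7 TPM. Med30, a subunit of the Mediator complex that links activators to RNA polymerase II, was positive in 19 and 5 cells with means of 72.9 and 7.86 TPM. The control cultures differed less in Med30, with 15.6 and 9.78 TPM.

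Entries for short RNAs were among the lowest. Snord104, a small nucleolar RNA, had means of 473 and 55.1 TPM and 16 and 5 positive cells. Vaultrc5, an RNA of vault particles, had means of 272 and 31.4 TPM and 23 and 10 positive cells, and differed by -3.08 here and by -4.67 between the control cultures. Scaling to gene length gives such short entries a high TPM from few reads. Whether the reads came from longer transcripts at the same place was not tested. Ifi27l2a, a gene of the interferon response, was positive in 19 and 2 cells. Zfp691, Gpr180, Gm11517 and 0610012G03Rik differed by -3.57 to -3.05. Skiv2l differed by -3.53 and overlaps Dxo on the other strand. H2-Q2 differed by -2.97, and its value is uncertain because near-identical class I genes can share its reads.

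**Figure D4:**
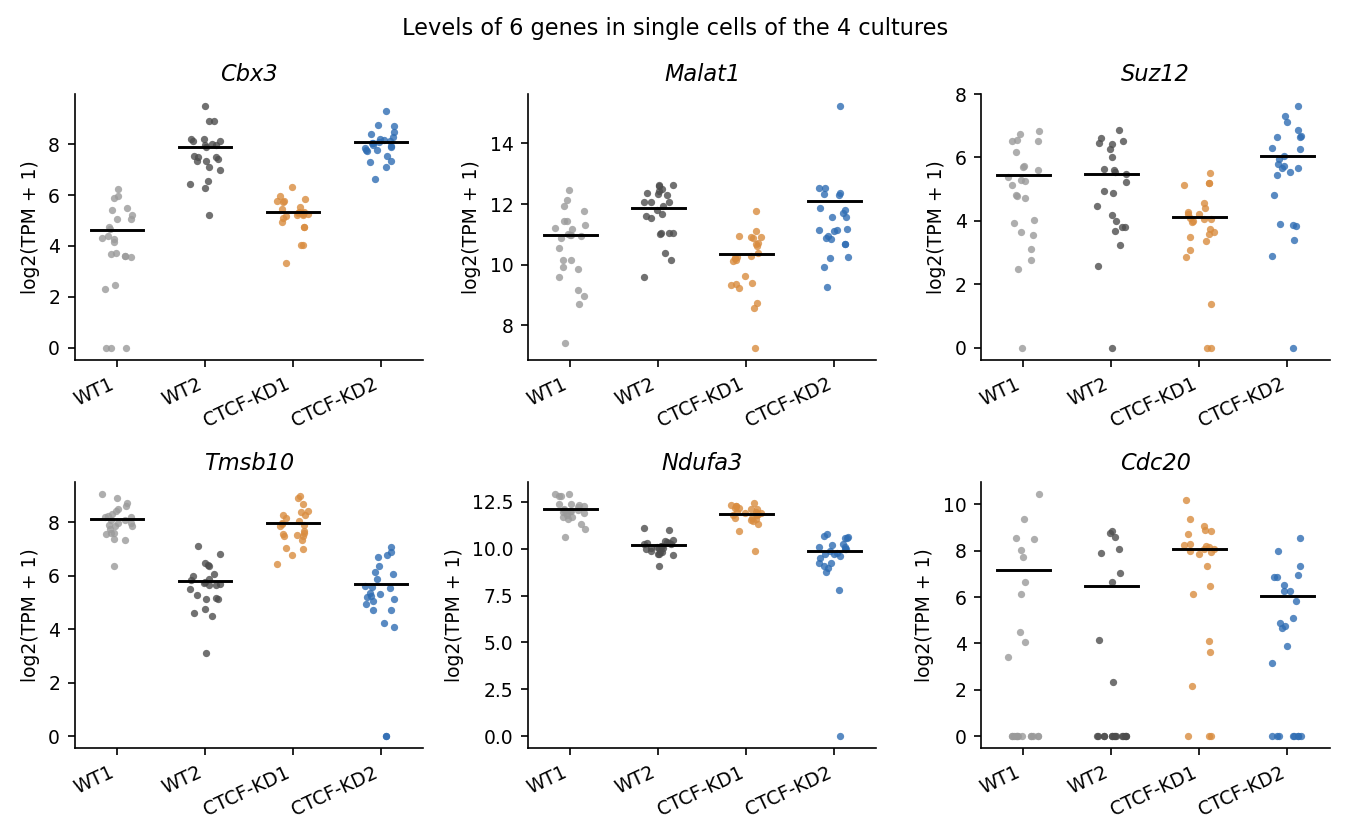
Levels of Cbx3, Malat1, Suz12, Tmsb10, Ndufa3 and Cdc20 per cell, log2(TPM + 1), in the 4 cultures; points are cells and bars stand at log2(mean TPM + 1). Cbx3 is higher and Tmsb10 and Ndufa3 are lower in the second culture of both conditions, whereas Suz12 differs between the CTCF-KD cultures (means 16.4 and 65.4 TPM) and hardly between the control cultures (42.2 and 43.4 TPM).

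The genes that work with CTCF in loop formation included several higher members. Of 19 listed, 18 were tested, Ctcf among them, and 8 were at least 2-fold higher in the culture labelled CTCF-KD2 (44.4%, beside 17.5% of all genes) and none was lower. The median difference was 0.94, against 1.08 between the control cultures for the same genes and 0.22 over all genes. Without Ctcf, the gene by which the cultures were contrasted, 7 of 17 were higher, with a median of 0.89 against 1.12. The median of the 18 was 0.20 after centring by GC content and length, these transcripts having a median GC content of 43.1%. Esco1, an acetyltransferase of cohesin, had means of 12.7 and 63.4 TPM, a difference of 2.23. Stag2, a cohesin subunit, had means of 9.40 and 35.5 TPM and a difference of 1.81. Smc3, the ring subunit, and Wapl, which releases cohesin, differed by 1.22 and 1.10. Each of these 4 was also at least 2-fold higher in WT2 than in WT1, by 1.91, 1.33, 1.002 and 1.58. Yy1, a factor that can bridge promoters and enhancers, had means of 22.9 and 57 TPM and differed by 1.28 against 0.48 between the control cultures. Hdac8, the deacetylase of Smc3, was read in 6 cells of each culture. Rad21, the kleisin, differed by 0.79, and Maz, whose transcript has 63.6% GC, by -0.87.

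Genes of Polycomb complexes and DNA methylation were as a list near all genes. Of 14 tested genes of the Polycomb and DNA methylation list, 4 were at least 2-fold higher (28.6%, beside 17.5% of all genes) and 1 was lower (7.14%, beside 7.97%), with a median of 0.29 against 0.22 over all genes. Suz12, a core subunit of Polycomb repressive complex 2, ran from 0 to 44.5 TPM (median 15.4) in CTCF-KD1 and from 0 to 198 TPM (median 53.2) in the culture labelled CTCF-KD2. The difference was 1.93, and 1.13 after centring by GC content and length. Between WT1 and WT2 it was 0.04. Eed, another subunit of that complex, differed by 1.45 against -0.10, with means of 28 and 77.9 TPM. Ezh2, its methyltransferase, had means of 109 and 138 TPM. Bmi1 and Cbx8, of Polycomb repressive complex 1, differed by 1.41 and -1.71, and by 1.83 and -1.83 between the control cultures.

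A list of non-coding RNAs, made up of Malat1 and Neat1, which stay in the nucleus, and mostly of hosts of small nucleolar RNAs such as Gas5 and Snhg1, had a median difference of 0.83 over 9 tested genes, against 0.00 between the control cultures. Malat1 and Neat1 were the 2 at least 2-fold higher (22.2%, beside 17.5% of all genes). The median was 0.31 in thinned cells and 0.41 after centring by GC content and length. Malat1, a long RNA kept in nuclear speckles, ran from 152 to 3459.8 TPM (median 1212) in CTCF-KD1 and from 619 to 38862 TPM (median 2283) in the culture labelled CTCF-KD2. Its difference of 1.76 was 1.15 without the shallow cell, and 0.90 between the control cultures. Neat1, the RNA of paraspeckles, differed by 1.13 with that cell and by -0.02 without it. The list's median without that cell was 0.59.

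Genes of mitosis past 2-fold were about as frequent as among all genes in the lower direction. Of 49 tested genes of G2 phase and mitosis, 4 were at least 2-fold lower (8.16%, beside 7.97% of all genes) and 2 higher (4.08%, beside 17.5%). Differences were positive in 17 of the 49. Their median was -0.23, with quartiles of -0.49 and 0.29, and 0.18 between the control cultures. It was -0.60 after centring by GC content and length. Cdc20, the activator of the anaphase-promoting complex, ran from 0 to 1166 TPM (median 260.2) in CTCF-KD1 and from 0 to 377 TPM (median 27.2) in the culture labelled CTCF-KD2, with 21 and 16 positive cells. Its means were 272 and 65.7 TPM, a difference of -2.04 against -0.70 between the control cultures. Aurka, the kinase of spindle poles, was positive in 17 and 9 cells with means of 93.9 and 36.8 TPM. Ndc80, of the kinetochore, and Dlgap5, of spindle fibres, differed by -1.61 and -1.59. Bub1, of the spindle checkpoint, and G2e3 were higher by 1.28 and 1.31. Summed over the list, the cells ran from 1272 to 15085 TPM (median 7360) in CTCF-KD1 and from 1812 to 12038 TPM (median 6025) in CTCF-KD2, so the cultures overlapped widely. Whether fewer cells were in mitosis or each held less of these RNAs cannot be told apart from culture means.

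Genes of the G1/S transition and of replication had 8 members at least 2-fold higher and 2 lower of 41 tested, shares of 19.5% and 4.88% beside 17.5% and 7.97% of all genes. Their median of 0.47 was 0.21 in thinned cells, 0.04 after centring by GC content and length and -0.02 in cells with 5000 to 6500 genes. Between the control cultures 21 of the same 41 were at least 2-fold higher, beside 21.3% of the 6703 genes tested there. Their median was 1.01, against 0.27 over those 6703 genes. Pola1, the catalytic subunit of DNA polymerase alpha, differed by 1.76 here and by 3.36 there. Ung, which removes uracil from DNA, differed by -1.83 and E2f8, a repressor of E2F targets, by -1.42, with 3.06 for E2f8 between the control cultures.

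Of 76 tested nuclear genes of oxidative phosphorylation, 8 were at least 2-fold lower in the culture labelled CTCF-KD2 (10.5%, beside 7.97% of all genes) and 1 higher (1.32%, beside 17.5%). Their median was -0.32 against -0.27 between the control cultures, and -0.13 after centring by GC content and length. Ndufa3, a subunit of complex I, ran from 956 to 5556 TPM (median 3804) in CTCF-KD1 and from 0 to 1795 TPM (median 900.5) in CTCF-KD2, the 0 being the shallow cell. Its means were 3746 and 945 TPM, a difference of -1.99, while the control cultures had means of 4504 and 1160 TPM and a difference of -1.96. Uqcr11, a small subunit of complex III, had means of 5239 and 2249 TPM. Summed over the list, the cells ran from 73968 to 99364 TPM in CTCF-KD1 and from 26802 to 78736 TPM in CTCF-KD2, with 54520 as the lowest value besides the shallow cell.

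Among 81 tested cytosolic ribosomal protein genes, 12 were at least 2-fold lower (14.8%, beside 7.97% of all genes) and 4 higher (4.94%, beside 17.5%), with a median of -0.14. Rps18 and Rps21, of the small subunit, had means of 1264 and 1344 TPM in CTCF-KD1 and of 360.4 and 425 TPM in the culture labelled CTCF-KD2. They differed by -1.81 and -1.66, and by -2.13 and -1.77 between the control cultures. Rpl38, of the large subunit, differed by -1.83. Rpl9 differed by 1.86 with the shallow cell and by -0.04 without it, and ribosomal protein genes have processed pseudogenes that can take part of their reads. Of 38 ribosome assembly genes, 5 were higher (13.2%) and 2 lower (5.26%), both shares below those of all genes. Their median of 0.43 was 0.15 in thinned cells and 0.21 after centring by GC content and length. Dkc1, the pseudouridine synthase of box H/ACA particles, had means of 218 and 502 TPM, while its partner Gar1 had 37.6 and 12.8 TPM. Polr1b, of RNA polymerase I, differed by 1.04 here and by -1.81 between the control cultures.

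Lists of protein folding and degradation held few members past 2-fold. Of 11 tested heat shock genes, 1 was higher (9.09%, beside 17.5% of all genes) and 1 lower (9.09%, beside 7.97%). Their median was 0.63 in both comparisons. Between the CTCF-KD cultures it was 0.26 in thinned cells, 0.45 without the shallow cell and 0.17 after centring by GC content and length. Dnaja1, a co-chaperone of Hsp70, had means of 38.91 and 106 TPM, a difference of 1.43 against 1.48. Hsf1, the factor that drives heat shock genes, was different by -1.004 and differed by 0.80 between the control cultures. Canx, a chaperone of the endoplasmic reticulum, had means of 427 and 954 TPM and differed by 1.16. In the unfolded protein response list 2 of 16 genes were higher (12.5%, beside 17.5% of all genes) and none was lower. Its median was 0.23, against 0.03 between the control cultures. Of 31 tested proteasome genes, Psmc6 and Psma3 were at least 2-fold higher (6.45%, beside 17.5% of all genes), by 1.54 and 1.29, and the list's median was 0.09. Psmd13, the sole lower member (3.23%, beside 7.97%), differed by -1.07 here and by 0.49 between the control cultures.

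Cholesterol genes had 4 members higher (20%, beside 17.5% of all genes) and 2 lower (10%, beside 7.97%) of 20. Their median was 0.36 against -0.27 between the control cultures, a contrast that was not tested, and it was 0.02 in thinned cells, 0.03 as a mean of logs and 0.10 after centring by GC content and length. Hmgcs1, which makes the precursor of mevalonate, ran from 0 to 199.7 TPM (median 20.2) in CTCF-KD1 and from 0 to 989 TPM (median 65) in the culture labelled CTCF-KD2. Its means were 44.5 and 121 TPM, but 399 and 270.3 TPM in the control cultures. Cyp51 and Sc5d, enzymes of later steps, differed by 1.37 and 1.45, and by -0.27 and 1.36 between the control cultures. Tm7sf2, a sterol reductase, differed by -2.33 with 8 and 3 positive cells. Kdm3a, a histone demethylase induced in hypoxia, had means of 20.5 and 56.1 TPM against 110.9 and 113 TPM in the control cultures.

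In antigen processing, 2 genes were higher (16.7%) and 1 lower (8.33%) of 12, near the 17.5% and 7.97% of all genes. The median was -0.44, and -0.26 after centring by GC content and length. Tap2, which transports peptides, had means of 77.6 and 36.7 TPM and differed by -1.06 against 1.07 between the control cultures. Psmb8, of the immunoproteasome, had means of 1338 and 715 TPM, a difference of -0.90. Pdia3 and Erap1, which help load and trim peptides, were higher by 1.08 and 1.34. Usp18, a brake on interferon signalling, was read in 5 and 10 cells with means of 10.2 and 75.3 TPM, a difference of 2.76 against -0.01, whereas the 7 interferon genes tested had a median of 0.29.

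Among actin and migration genes, 3 of 23 were at least 2-fold lower (13%, beside 7.97% of all genes) and 1 higher (4.35%, beside 17.5%). Tmsb10, which binds actin monomers, ran from 86.8 to 504 TPM (median 236) in CTCF-KD1 and from 0 to 134 TPM (median 39.4) in the culture labelled CTCF-KD2. Its means of 248 and 50.6 TPM were close to the 278 and 55.2 TPM of the control cultures. Myh9, non-muscle myosin, was read in every cell with means of 131 and 36.5 TPM, a difference of -1.82 against -1.13. Capzb, a capping protein, differed by -1.17 against -0.05. Arpc3, of the Arp2/3 complex, differed by 1.34 against -1.34. Over the 23 genes of the list the median was 0.02. Cxcr4, a chemokine receptor, had 20 and 8 positive cells and means of 31.7 and 6.68 TPM, a difference of -2.09 against -0.70.

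T cell identity genes had a median difference of 0.08 over 19 tested, against 0.22 over all genes. Bcl11b, a T cell factor, was the sole member past 2-fold (5.26% higher, beside 17.5% of all genes, and none lower, beside 7.97%). It differed by 2.62, and by 0.78 without the shallow cell. Gata3, which guides T helper 2 cells, had means of 571 and 423 TPM, and Thy1 and Cd5 differed by -0.09 and -0.12. Cd28, the costimulatory receptor, had means of 12.4 and 24.5 TPM, a difference of 0.93 that was 0.13 after centring by GC content and length. Gapdh, a glycolytic enzyme often used as a reference, differed by 0.21. Egr1, an immediate early factor, had means of 124 and 236 TPM, its difference of 0.92 being 0.57 without the shallow cell. Junb differed by -0.15. Jun had a difference of 2.80 with the shallow cell and of -2.04 without it. Ier2 and Ier3 differed by -1.07 and -1.05.

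Among p53 targets, 2 of 12 were higher (16.7%, beside 17.5% of all genes): Ccng1, a cyclin, had means of 51.5 and 152 TPM, and Trp53inp1 differed by 1.25 against 1.57 between the control cultures. Mxd3, which competes with Myc for Max, was read in 24 and 17 cells with means of 71.6 and 22.4 TPM, a difference of -1.63 against 0.59. Glycolysis genes had no member past 2-fold of 16, where 17.5% of all genes were higher and 7.97% lower. In the integrated stress response 2 of 16 were lower (12.5%, beside 7.97% of all genes) and the median was 0.01. Between the control cultures 4 of these 16 were lower, beside 9.4% of the 6703 genes tested there. Their median was -0.49, against 0.27 over those 6703 genes. Ddit3 differed by -1.19 against -1.84 between the control cultures, and Stc2 by -1.20 with 8 and 4 positive cells. The control means of Stc2 were 7.38 and 0 TPM, so its difference of -3.07 there is set by the pseudocount.

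**Figure D5:**
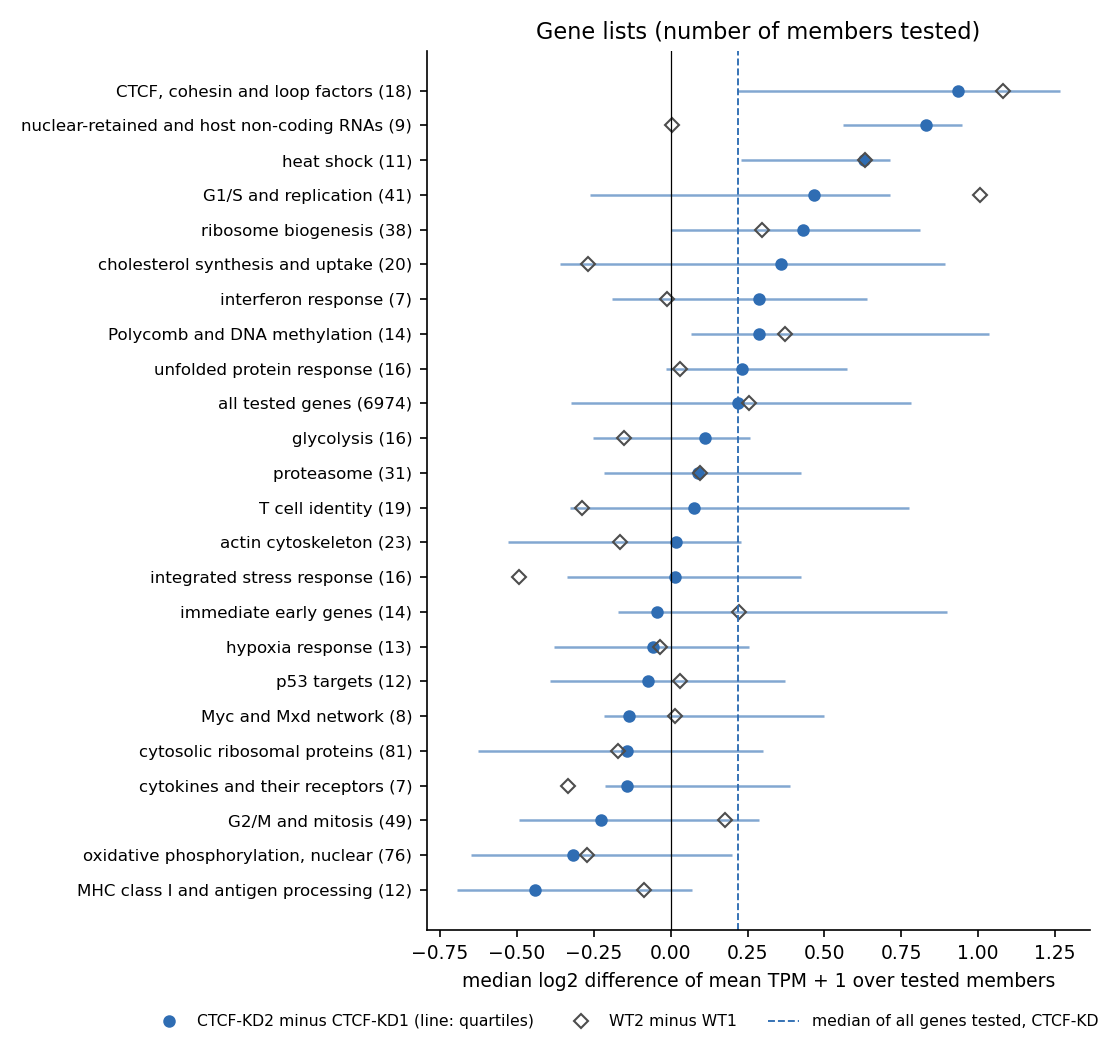
Median log2 difference of mean TPM + 1 over the tested members of each gene list with 5 or more such members (number in brackets), for the culture labelled CTCF-KD2 minus CTCF-KD1 (circles, with lines from the lower to the upper quartile) and for WT2 minus WT1 over the same genes (diamonds). The dashed line is the median of all tested genes in the CTCF-KD comparison (0.22); loop factors lie at 0.94 and 1.08, nuclear and host non-coding RNAs at 0.83 and 0.00, and antigen processing at -0.44.

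The median per chromosome ran from -0.05 on chromosome 17 to 0.55 on chromosomes 18 and X, a range of 0.60 against 0.54 between the control cultures. After centring by GC content and length the range was 0.25.

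The spread between cells of a culture was compared as the coefficient of variation (CV) of log2(TPM + 1) over 8035 genes. Its median was 0.760 in CTCF-KD1 and 0.856 in the culture labelled CTCF-KD2, and 64.7% of genes had the higher CV in CTCF-KD2. After cells were thinned to 80000 reads this share was 50.2%, a step that also left out the shallow cell. It was 60.2% at full depth without the 3 cells under 100000 reads, the shallow cell among them. By the limit of 1 SD from the mean difference, 814 genes (10.1%) lay above and 659 (8.2%) below, against 9.85% and 9.52% between the control cultures. Ctcf itself had a CV of 0.891 in CTCF-KD1 and of 0.555 in CTCF-KD2, beside 0.625 in WT1 and 0.704 in WT2. This CV depends on level. In CTCF-KD1 its median was 1.41 for genes with a mean log2 level of 1 to 2 and 0.47 for those of 4 to 6. The lower level of Ctcf in CTCF-KD1 and its spread between cells therefore cannot be told apart. In a principal component analysis of the 48 cells on 11231 genes, the first component (6.02% of the variance) followed the number of genes detected, with r of -0.94 in each culture. The cultures came apart on the third component (3.35% of the variance), on which the CTCF-KD2 cell was the higher in 97.2% of pairs of cells from different cultures. With genes scaled to unit variance, the second component parted them in 100% of pairs.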

How the data were processed

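EL4 cells were captured on Fluidigm C1 circuits and their cDNA amplified and sequenced. Per the study's methods, the authors removed wells with 0 or 2 cells, aligned reads with STAR to GRCm38, counted unique reads per gene, and deposited TPM values for 24057 genes, which are not counts. Here each TPM was divided by its gene's smallest common step, which gave whole reads for 100% of 504524 values above 0 (within 0.001 reads); a gene read in 1 cell alone (1336 of 13334) counts as 1 read there.

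Genes had a mean of at least 10 TPM and reads in at least 10 of the 48 cells. Culture levels were log2(mean TPM + 1), and 2-fold was a rule of size without a test. Named genes were the 12 highest and 12 lowest past 2-fold that stayed so without the highest cell of each culture and had reads in at least 12 cells of the higher culture, then Ctcf, 7 genes the study names, and up to 4 members of each list by size of difference; further list members and the genes without overlap were picked after their values were seen. The cells and gene lists were chosen with earlier results of these data known. Gene symbols were matched to GENCODE M21 (23176 directly, 503 by RefSeq synonym, 378 unmatched). Alternatives were another pseudocount, scaling, filter, depth or cell set, and, added later, centring by GC content and length over 501 genes and leaving out the CTCF-KD2 cell with the fewest reads. Python 3.11.15, numpy 2.4.6, pandas 2.3.3 and scipy 1.17.1 were used, and the steps were tested on simulated data.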

Additional observations from a re-analysis of the deposited data

Results flagged for a closer look

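For 7 genes flagged here the second CTCF-KD culture differed from the first in the opposite direction to that between the control cultures. They are not all such genes: Polr1b, for 1, was at 1.04 against -1.81. Among the 7, Ctcf was past 2-fold between the CTCF-KD cultures alone. With 1 culture on each side the difference between the comparisons was not tested, and 46 and 53 of 6113 genes were past 2-fold in opposite directions. Ctcf was higher by 1.44 on the log2 scale in the culture labelled CTCF-KD2, and the control cultures differed by -0.69. The CTCF-KD cultures were contrasted by this gene, so its difference between them was known beforehand. Tiam1 was at 3.44 against -2.00, and at 1.41 without the shallow CTCF-KD2 cell. St3gal1 was at 3.12 against -1.88, and Nek4 at 2.73 against -1.53. Arpc3 was at 1.34 against -1.34. E2f8 was at -1.42 against 3.06, and Tap2 at -1.06 against 1.07.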

How the results depend on the processing

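With 24 cells from 1 culture on each side, culture and group cannot be separated at any depth, and the cells' numbers in the labels only name them. No paired analysis was possible because each comparison sets 1 culture against 1. Ctcf was higher in the culture labelled CTCF-KD2 under all 11 alternatives, at 1.08 with a pseudocount of 10, 1.77 as the mean of logs and 1.01 after centring by GC content and length. The cultures were contrasted by their Ctcf level and the alternatives use the same cells, so this lends that difference no support. Higher and lower genes in CTCF-KD2 numbered 715 and 334 with a pseudocount of 10, 776 and 888 as the mean of logs, 2251 and 1398 without the filter, and 280 were lower with reads in at least 24 cells; 628 were higher after GC and length centring. In WT2 they numbered 935 and 405, 2666 and 1579 without the filter, 762 and 232 with the stricter one, and 809 higher after centring. Of the 4 lists 0.5 or more from the median of all genes (loop factors, non-coding RNAs, antigen processing and oxidative phosphorylation) none stayed so after that centring, when 1 other list (G2 phase and mitosis) was, and the chromosome range was 0.25. The median of genes detected per cell was 52.5 higher in CTCF-KD2 when counted above 10 TPM, and lower above 0. The share of genes with the higher CV was 69.5% as SD, 58.8% as CV of TPM, 50.2% thinned and 60.2% without cells under 100000 reads.

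Of 1341 values of 122 named genes, 923 moved by less than counting error, 401 by more, and 17 changed sign. Jun was at -0.62 as the mean of logs, -2.11 thinned, -1.99 without cells under 100000 reads, -2.04 without the shallow cell, -1.64 without the highest cells and -2.59 in cells with 5000 to 6500 genes. Neat1 was at -0.065 as the mean of logs, -0.23 thinned, -0.018 without the shallow cell and -0.16 in that gene range. Rpl9 was at -0.21, -0.28 and -0.044 in the first 3 of these and -0.063 without cells under 100000 reads. Hdac8 was at -1.55 in that gene range, Dnajb9 at -0.46 as the mean of logs and Rrs1 at -0.27 thinned. The cause was not tested, save that Jun, Neat1 and Rpl9 turned without 1 cell.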
